A study of Mus musculus with 2 samples.

Results

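The genes described here are the nicotinic, muscarinic and adrenergic receptor genes of the mouse vagus nerve ganglia, the receptors through which acetylcholine, noradrenaline and adrenaline act on cells. They were chosen by symbol, not by any measured value, though with earlier results of these data known. They number 29 of the 32286 rows of the gene table. The list held 16 nicotinic subunits, of which 11 are neuronal and 5 are muscle type, together with 5 muscarinic and 8 adrenergic receptors. Nuclei came from C57BL/6J mice of genotype Rosa26-floxed-STOP-Cas9-eGFP on standard chow, bought at 8 to 9 weeks of age, which had received AAVrg-Cre in the liver 4 weeks before collection. Their age at injection was not stated. The female library pooled 14 ganglia of 7 mice and the male library pooled 16 ganglia of 8 mice, so each sex is 1 sample of pooled animals. All mice of both sexes carried the reporter allele and had the injection. The reporter transcript had 1 UMI in total, so liver-projecting neurons were not separated here.

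Nicotinic receptors are ion channels built from 5 subunits, and alpha subunits carry most of the acetylcholine binding site. The Chrna3, Chrnb4 and Chrna5 combination carries fast transmission in autonomic ganglia, and Chrna7 and Chrna9 can form channels of their own. Muscarinic and adrenergic receptors are G protein-coupled. The Chrm1, Chrm3, Chrm5 and alpha1 group acts through Gq, the Chrm2, Chrm4 and alpha2 group through Gi, and beta receptors through Gs. The cell bodies of vagal afferent neurons lie in the nodose ganglion, whose neurons arise from placode, and in the jugular ganglion, whose neurons arise from neural crest.

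The counts are unique molecular identifiers (UMIs), which stand for single captured RNA molecules. The female library held 3791 nuclei and 17435300 UMIs with a median of 2381 per nucleus, and the male library held 4923 nuclei and 27529730 UMIs with a median of 2658. With 1 library per sex no test between sexes was possible, and sex and library cannot be told apart. Levels are UMIs of a gene per 10000 UMIs of the nuclei named, with exact Poisson 95% intervals that cover counting error only. For a count of 0 the limit given is the value of 3 counts, which is lower than the upper end of the exact interval. The libraries shared 8 barcode sequences. Nuclei were clustered without any of the receptor genes and named from marker genes. The neuron-like nuclei, 680 female and 1610 male, comprised 362 and 894 nodose, 160 and 331 jugular, 9 and 148 sympathetic, and 149 and 237 that matched none of these 3. All 8 sympathetic markers were detected in non-neuronal nuclei, and their summed level over 10 such classes ran from 0.438 to 1.05 (female) and from 2.60 to 6.11 (male). No defining marker of that list was at 0 in either library. Nuclei of classes not typical of a ganglion were present as well, 84 female and 31 male adipocyte-like, 464 and 24 cerebellar granule cell-like, and 67 and 63 pituitary cell-like.

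Several of the receptor genes are neighbours in the genome (mm10, GENCODE vM21 annotation). *Chrna5* at chr9:54980880-55007779 (+), *Chrna3* at chr9:55010111-55026562 (−) and *Chrnb4* at chr9:55028154-55048779 (−) lie in a row, with 2331 and 1591 bases between them. *Chrnb3* at chr8:27368711-27399730 (+) and *Chrna6* at chr8:27403212-27413944 (−) are 3481 bases apart. *Chrnd* and *Chrng* on chromosome 1 are 4586 bases apart. The promoter windows of the chromosome 9 trio are shown because these 3 neighbours had the same order of levels over the sympathetic, nodose and jugular nuclei. Each runs from 250 bases before to 50 bases after a RefSeq start (GRCm38.p6), 5′ to 3′ on the strand of the gene, and capitals mark the GC box, searched on both strands as GGGCGG or its reverse complement CCGCCC. *Chrna5* has another start with a window of 41.3% GC and 0 GC boxes, which is not shown.
Chrna5 (chr9:54981238-54981537, +): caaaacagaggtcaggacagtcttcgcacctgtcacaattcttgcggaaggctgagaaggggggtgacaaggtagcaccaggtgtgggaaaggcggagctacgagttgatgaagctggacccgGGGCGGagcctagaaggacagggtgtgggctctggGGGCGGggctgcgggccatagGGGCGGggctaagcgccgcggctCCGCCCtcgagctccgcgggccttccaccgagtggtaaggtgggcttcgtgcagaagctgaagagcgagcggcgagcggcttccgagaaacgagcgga
Chrna3 (chr9:55026513-55026812, −): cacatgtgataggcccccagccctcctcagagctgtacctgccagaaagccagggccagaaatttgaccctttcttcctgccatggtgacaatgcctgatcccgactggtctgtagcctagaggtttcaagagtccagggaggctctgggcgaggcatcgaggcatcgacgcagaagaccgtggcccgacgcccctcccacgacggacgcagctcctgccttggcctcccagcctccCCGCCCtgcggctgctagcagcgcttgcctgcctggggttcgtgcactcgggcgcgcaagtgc
Chrnb4 (chr9:55048495-55048794, −): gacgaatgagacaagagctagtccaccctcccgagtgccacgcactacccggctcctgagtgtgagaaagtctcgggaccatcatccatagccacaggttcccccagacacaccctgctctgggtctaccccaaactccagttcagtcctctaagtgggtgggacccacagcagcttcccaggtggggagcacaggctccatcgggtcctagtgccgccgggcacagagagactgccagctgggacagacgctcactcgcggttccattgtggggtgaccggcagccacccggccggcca
The *Chrna5* window held 4 GC boxes, the *Chrna3* window 1 and the *Chrnb4* window 0. A GC box stood in 12 of the 23 member windows found (21 genes), or 52.2%, and in 35.7% of all 32851 promoter windows of this length. GC content was 65.0% for *Chrna5*, 64.3% for *Chrna3* and 63.0% for *Chrnb4*.

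Receptor genes had their highest levels in different classes of nuclei, some neuronal and some not. Of the 29 genes, 22 had at least 20 UMIs, 7 had fewer and 1 of those 7, *Chrnd*, had none. Relative to all named non-neuronal nuclei, neuron-like nuclei had at least 2-fold higher levels of 5 of the 22 genes in both libraries, *Chrna7*, *Chrna9*, *Chrna1*, *Chrng* and *Chrm2*. That is 22.7% of the genes, where 11.9% of the 19048 genes tested were called the same way. The calls for *Chrna1* and *Chrng* rest on genes with only 24 and 26 UMIs over both libraries. Without them *Chrna7*, *Chrna9* and *Chrm2* remain, so the excess over the background rests in part on few molecules. Another 4 (18.2%) were at least 2-fold lower, *Chrm3*, *Adra1a*, *Adra1b* and *Adrb3*, beside a background of 17.0%. The median log2 difference was 0.60 (female) and 0.33 (male), beside −0.28 and −0.21 over all genes tested. By class, 13 genes were at least 2-fold above all other nuclei in both libraries in at least 1 class, or 59.1% of the 22, beside 46.9% of all genes tested. They made 17 pairs of gene and class, or 0.773 calls per gene beside 0.752 over all genes, so the number of calls was near that of genes in general. No receptor gene was called higher in satellite glia-like (background 4.84%), myelinating Schwann cell-like (6.04%), non-myelinating Schwann cell-like (4.06%), macrophage-like (8.45%) or cerebellar granule cell-like nuclei (2.22%). The sympathetic nuclei were left out of that rule because the female library held only 9. Unnamed nuclei, and the 149 female and 237 male neuron-like nuclei that matched none of the 3 neuron types, were not tested as classes either.

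**Figure D1:**
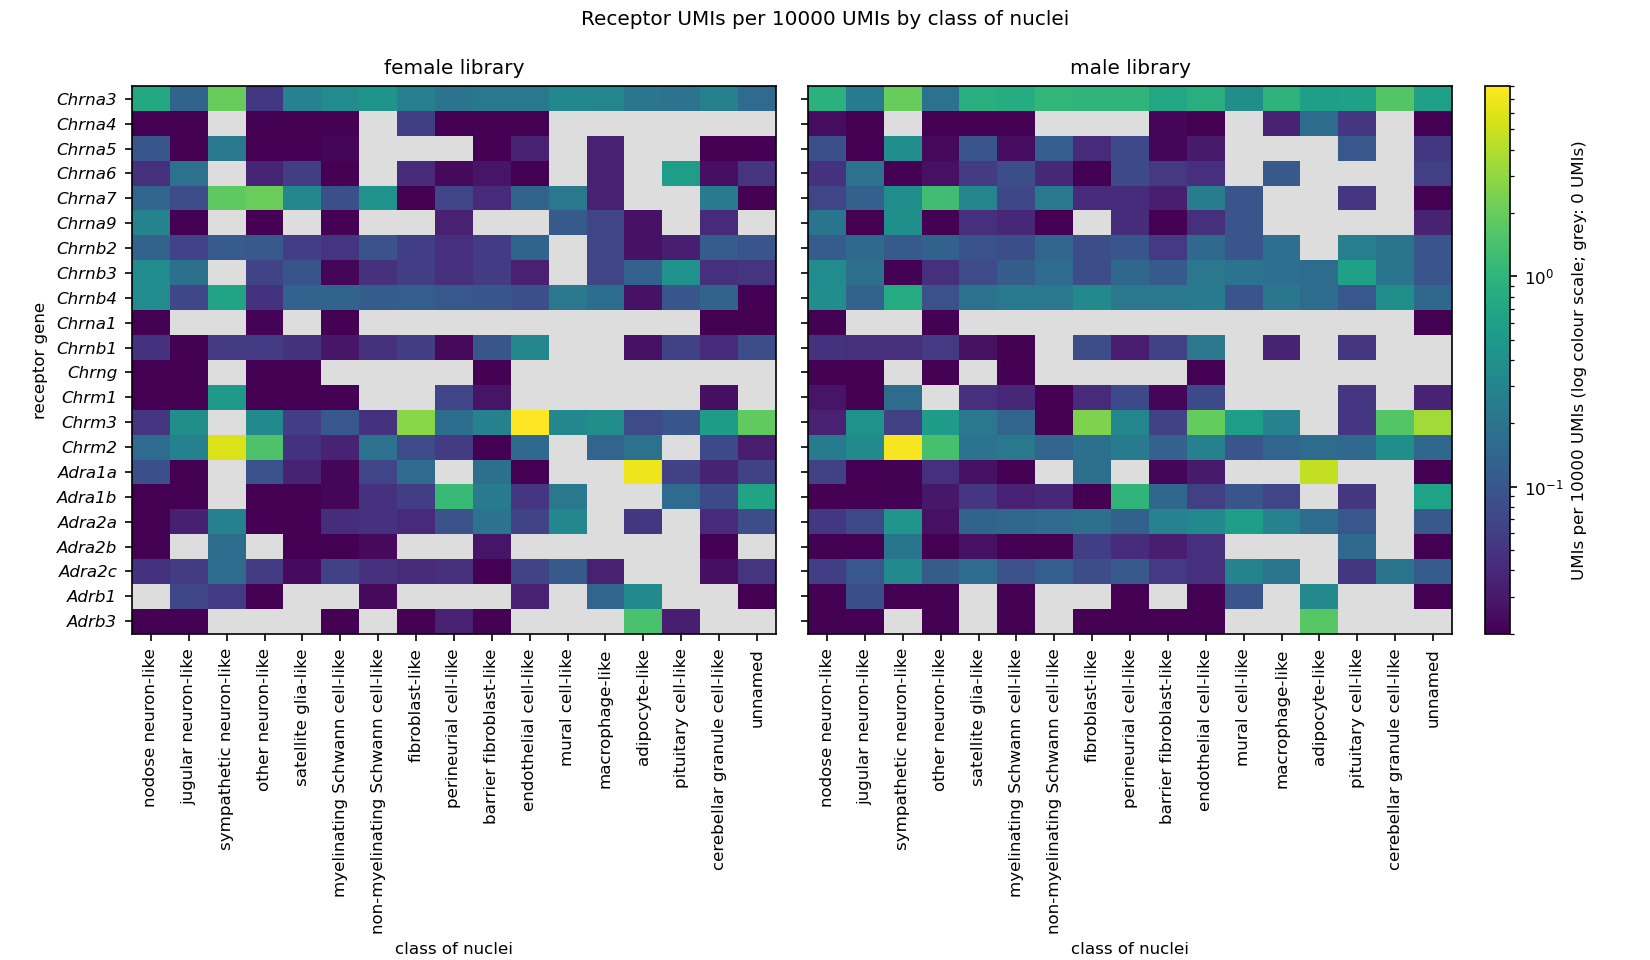
UMIs per 10000 UMIs of the 22 receptor genes with at least 20 UMIs (rows) in 17 classes of nuclei (columns), female library on the left and male on the right, on a log colour scale that stops at 0.02 and 8, with grey for 0 UMIs. *Chrm2* was brightest in sympathetic neuron-like nuclei (5.86 and 7.43), *Adra1a* in adipocyte-like nuclei (6.89 and 4.62) and *Chrm3* in female endothelial cell-like nuclei (8.47), while *Chrna3* was above 0 in every class shown.

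The ganglionic subunits *Chrna3*, *Chrnb4* and *Chrna5* were higher in sympathetic and nodose than in jugular neuron-like nuclei. *Chrna3*, the alpha subunit of the ganglionic channel, had 618 female and 2110 male UMIs. Its level was 1.99 (1.39 to 2.76) in the 9 female and 1.98 (1.78 to 2.18) in the 148 male sympathetic nuclei. Nodose nuclei had 0.759 (0.676 to 0.851) and 0.908 (0.847 to 0.973), and jugular nuclei 0.139 (0.0932 to 0.20) and 0.238 (0.195 to 0.287). The nodose and jugular intervals did not overlap in either library. Within the nodose class the 4 clusters differed, and cluster 27, led by Gm31698, March1 and Tmc3, had the highest female level (1.48, 1.17 to 1.84, n = 32 nuclei) and 1.14 (0.965 to 1.35, n = 86 nuclei) in the male library. Cluster 9, led by Tafa2, Cntnap5c and Lypd1, had the lowest level of the 4 in both, 0.230 (0.146 to 0.345) and 0.589 (0.494 to 0.697).

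*Chrna3* was also found in each of 10 non-neuronal classes. Its level over them ran from 0.197 to 0.444 (female) and from 0.387 to 1.05 (male), and the male level was the higher one in 10 of 10. Macrophage-like nuclei, which serve here as cells that should lack the gene, had 0.315 (0.144 to 0.597) and 0.955 (0.629 to 1.39). The male nodose level of 0.908 therefore lay no higher than the male macrophage-like level, whereas the female nodose level lay above the female one. By share, 29.6% of 362 female nodose nuclei (exact Clopper-Pearson 95% interval 24.9 to 34.6%) and 45.6% of 894 male nodose nuclei (42.3 to 49.0%) had a *Chrna3* UMI. Macrophage-like nuclei had 5.80% (2.54 to 11.1%) and 18.9% (12.7 to 26.7%), at median depths of 1726 and 1874 UMIs against 5178 and 6264 in nodose nuclei. After every nucleus was thinned to 1000 UMIs the nodose shares were 7.20% and 9.73%, and the macrophage-like shares were 2.92% and 7.58%. At equal depth the male share in nodose nuclei was thus within the macrophage-like interval (3.69 to 13.5%), which rests on 10 of 132 nuclei. The male jugular share was then 3.32% (1.67 to 5.87%), below the male nodose interval (7.87 to 11.9%). In the female library the jugular interval (0.685 to 6.28%) overlapped the nodose one (4.76 to 10.4%). Whether macrophage-like nuclei set the floor for deeper nuclei was not tested. The summed sympathetic markers given above moved with the male level. Their part in it was not tested.

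*Chrnb4*, the beta partner of *Chrna3*, had the same order over these 3 classes. It reached 0.664 (0.343 to 1.16) and 0.794 (0.673 to 0.930) in sympathetic nuclei, 0.362 (0.305 to 0.427) and 0.374 (0.335 to 0.416) in nodose nuclei, and 0.0720 (0.0403 to 0.119) and 0.133 (0.102 to 0.171) in jugular nuclei. Nodose cluster 27 stood at 0.767 and 0.768, within the intervals of the sympathetic nuclei. Over the 10 non-neuronal classes *Chrnb4* ran from 0.0265 to 0.219 (female) and from 0.0968 to 0.3465 (male). Macrophage-like nuclei had 0.175 and 0.212. After the same thinning as for *Chrna3*, 3.05% of female and 4.03% of male nodose nuclei had a *Chrnb4* UMI. At equal depth both nodose shares were thus within the macrophage-like intervals (0.177 to 5.17% and 0.471 to 6.50%). Those intervals rest on 2 of 137 and 3 of 132 nuclei. The male jugular share was then 0.906% (0.187 to 2.63%), below the male nodose interval (2.84 to 5.53%). In the female library the jugular interval (0.152 to 4.44%) overlapped the nodose one (1.53 to 5.39%). *Chrna5*, an accessory subunit, was rarer with 55 and 211 UMIs. Its sympathetic level was 0.221 (0.0603 to 0.566) and 0.382 (0.30 to 0.479), and its nodose level was 0.0994 (0.0707 to 0.136) and 0.0870 (0.0688 to 0.109). Jugular nuclei had 1 female and 5 male *Chrna5* UMIs. *Chrnb4* overlaps the antisense gene Gm47877, which was counted separately.

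*Chrna7*, whose subunits form a calcium-permeable channel by themselves, was highest in other neurons. Most of its UMIs, 58.9% of 1318, lay in the neuron-like nuclei that were neither nodose, jugular nor sympathetic by their markers. Its 2 richest clusters there were cluster 17, led by Gm10754, Tafa1 and Grm8, with 2.35 (2.11 to 2.61, n = 74 nuclei) and 1.42 (1.27 to 1.58, n = 135 nuclei), and the shallower cluster 28, led by Gm10754 and Tafa1, with 2.74 (1.91 to 3.81) and 1.22 (0.883 to 1.63). By summed UMIs both clusters were higher in the female library and their intervals did not overlap. These intervals cover counting error only, and their coverage for UMIs gathered in few nuclei was not tested. By share, 12.06% of 680 female and 11.37% of 1610 male neuron-like nuclei had a *Chrna7* UMI, with overlapping intervals. That share is over all neuron-like nuclei, not these 2 clusters alone. Neuron-like nuclei as a whole were 5.0-fold (log2 interval 1.97 to 2.69) and 2.44-fold (0.98 to 1.61) above non-neuronal nuclei. Nodose nuclei were low at 0.143 and 0.0692. Satellite glia-like nuclei had 0.322 (0.212 to 0.468) and 0.306 (0.225 to 0.407), above macrophage-like nuclei with 1 UMI and 0 UMIs.

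*Chrna9* and *Chrnb3* were called in nodose nuclei, where 3.71% of all genes tested were called. The *Chrnb3* call was lost under Louvain clustering on 10 components, and the *Chrna9* call was not. *Chrna9*, known from the efferent synapse of hair cells, was 18.7-fold (log2 interval 3.54 to 4.97) and 3.41-fold (1.42 to 2.12) above all other nuclei. Its levels were 0.291 (0.240 to 0.349) and 0.207 (0.179 to 0.240). The nodose UMIs lay in few nuclei, 21 of 362 female (5.80%, 3.63 to 8.73%) and 54 of 894 male (6.04%, 4.57 to 7.81%). Nodose cluster 12, led by Hs3st4, Cntn5 and Gm11234, held 105 of 114 female and 103 of 186 male nodose UMIs, at 0.608 (0.497 to 0.736) and 0.312 (0.254 to 0.378). The male sympathetic nuclei had 76 *Chrna9* UMIs, 0.392 (0.309 to 0.490), in 14 of 148 nuclei (9.46%). The 9 female ones had 0, which by the 3-count limit allows up to 0.166. By share of nuclei the exact female interval reached 33.6%, so these 9 nuclei cannot show a difference between the libraries. *Chrnb3*, an accessory beta subunit, was 4.34-fold (1.75 to 2.49) and 3.0-fold (1.33 to 1.84) higher in nodose nuclei. It was again highest in cluster 12, with 0.689 (0.571 to 0.825) and 0.644 (0.561 to 0.737), but also stood at 0.305 (0.191 to 0.462) and 0.404 (0.307 to 0.522) in jugular cluster 20, led by Gfra3, Fshr and Zmat4. The third nodose call was *Chrng*, on 5 and 8 UMIs, and its intervals included no difference in both libraries.

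*Chrna6*, an alpha subunit known from dopamine neurons and some sensory neurons, was called in jugular nuclei. It was 4.46-fold (log2 interval 1.55 to 2.75) and 4.03-fold (1.58 to 2.43) above all other nuclei in that class, where the background was 4.16%. Cluster 16, led by Grik1, Htr4 and 1700111E14Rik, carried it at 0.313 (0.214 to 0.442) and 0.306 (0.236 to 0.390). Its genomic neighbour *Chrnb3* was at 0.157 and 0.0988 in that cluster, so the highest clusters of the pair differed. Both genes were also found in pituitary cell-like nuclei, 67 female and 63 male. *Chrnb3* was called there (background 5.34%) with 0.426 (0.227 to 0.728) and 0.616 (0.318 to 1.08), a call that Louvain clustering also lost. *Chrna6* had 17 female UMIs there, 0.557 (0.324 to 0.892), and no male UMI, where the 3-count limit is 0.154.

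Of the neuronal subunits only *Chrna6*, *Chrna9* and *Chrnb3* had a class past the rule. *Chrna3*, *Chrna5*, *Chrnb4* and *Chrna7* had none, and the nuclei with most *Chrna7* UMIs were outside that rule. The remaining neuronal subunits had none either. *Chrnb2*, the commonest beta subunit of brain receptors, had 0.135 and 0.115 in nodose and 0.111 and 0.108 in sympathetic nuclei. Jugular nuclei had 0.0672 and 0.155, at least 2-fold higher in the male library. *Chrnb2* overlaps *Adar* on the opposite strand. *Chrna4*, its usual partner in brain, had 15 and 45 UMIs in all, of which nodose nuclei held 3 and 22. *Chrna2* had 3 and 0 UMIs and *Chrna10*, the partner of *Chrna9*, had 2 and 4. *Chrna10* overlaps *Art1* on the opposite strand.

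**Figure D2:**
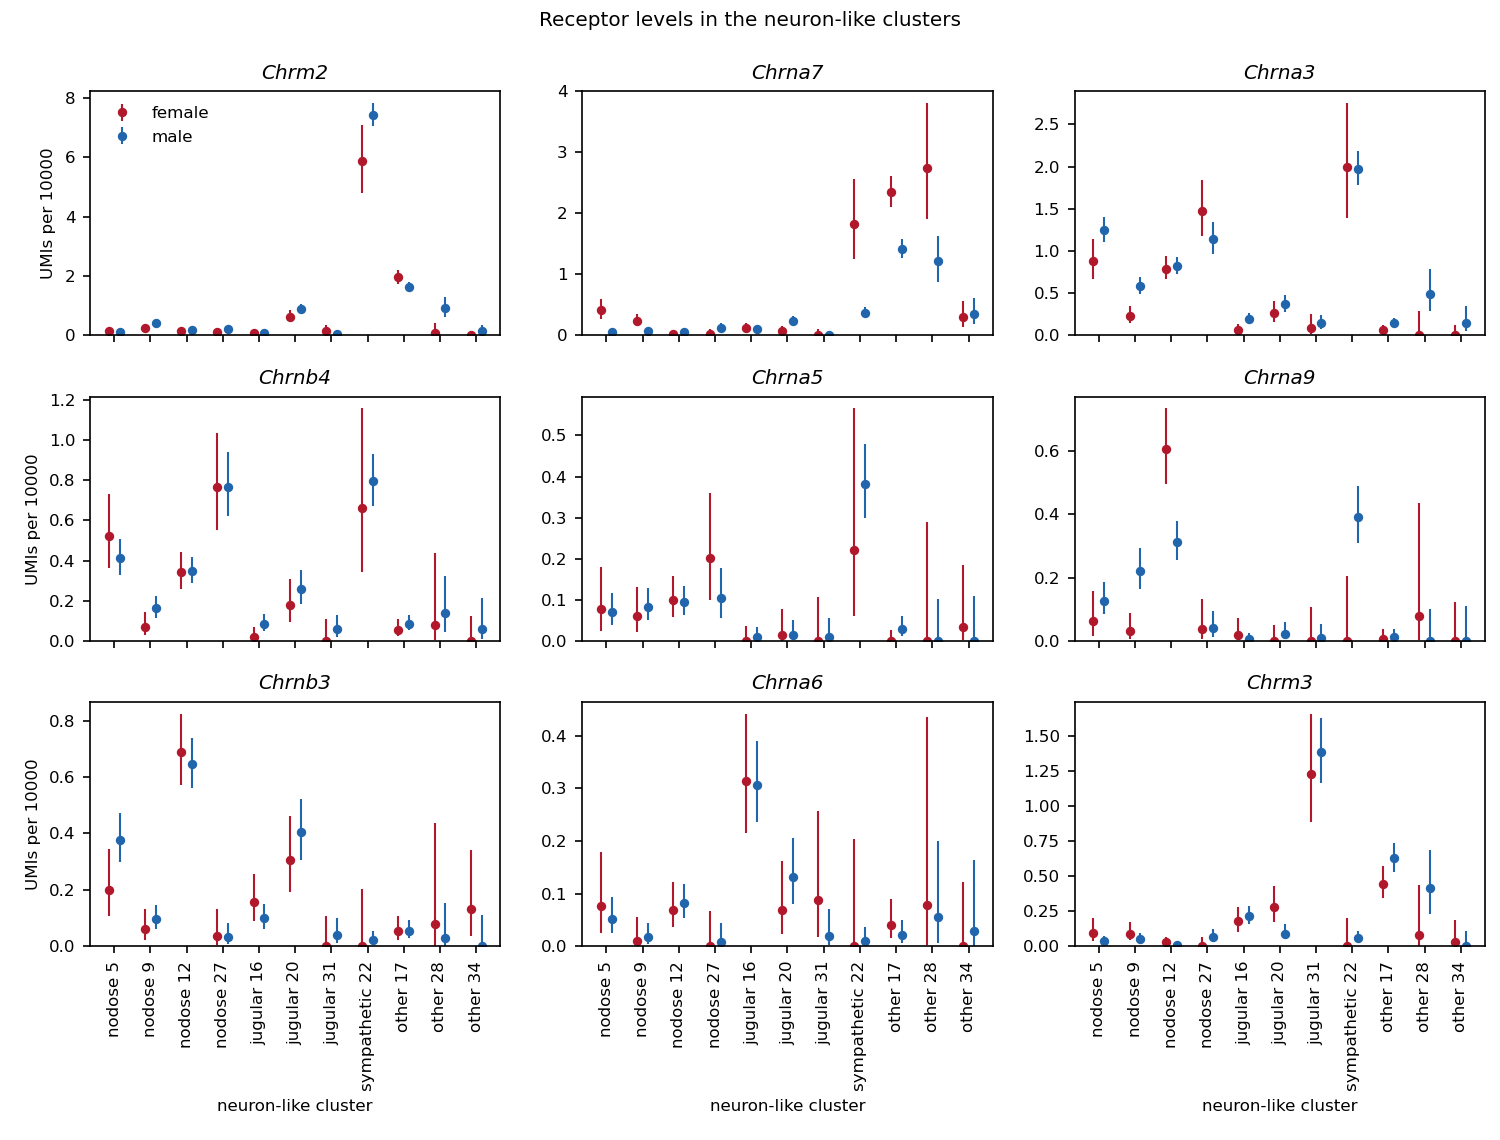
UMIs per 10000 UMIs of 9 receptor genes in the 11 neuron-like clusters, with cluster numbers under their class, points for the female (red) and male (blue) library and bars for exact Poisson 95% intervals. *Chrm2* peaked in the sympathetic cluster, *Chrna7* in clusters 17 and 28, *Chrna9* and *Chrnb3* in nodose cluster 12 (for *Chrna9* in the female library only), *Chrna6* in jugular cluster 16 and *Chrm3* in jugular cluster 31.

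Among the muscle-type subunits *Chrnb1*, the beta subunit of the muscle receptor, was the one with at least 100 UMIs over both libraries, 95 and 125. It was called in endothelial cell-like nuclei (background 7.15%), 6.81-fold (log2 interval 1.94 to 3.52) and 5.24-fold (1.47 to 3.20) above all others, at 0.311 (0.184 to 0.492) and 0.216 (0.118 to 0.363). *Chrna1*, the muscle alpha subunit, had 11 and 13 UMIs, of which neuron-like nuclei held 7 and 12 and non-neuronal nuclei 1 and 0. Against the floor of 3 UMIs the male ratio was at least 1.68-fold, and the female interval included no difference, so the neuron-like call for *Chrna1* rests on few molecules. *Chrng*, the fetal muscle subunit, had 11 and 15 UMIs, 9 and 13 of them neuron-like. *Chrne*, the adult subunit, had 0 and 3 UMIs and overlaps 4930544D05Rik. *Chrnd* had 0 of 44965030 UMIs, which allows a level of up to 0.000667.

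*Chrm2*, the Gi-coupled muscarinic receptor that slows the heart and serves as an autoreceptor on autonomic neurons, had 587 and 2422 UMIs. Sympathetic nuclei had 5.86 (4.80 to 7.09) and 7.43 (7.06 to 7.83), above every other class. A *Chrm2* UMI was found in 77.0% of the 148 male sympathetic nuclei (69.4 to 83.5%) and in 37.8% after thinning to 1000 UMIs, against 3.03% and 1.52% of male macrophage-like nuclei. Cluster 17, the cluster with much *Chrna7*, was the next of the neuron-like clusters with 1.96 (1.74 to 2.20) and 1.64 (1.48 to 1.81). Jugular cluster 20 had 0.638 (0.467 to 0.851) and 0.898 (0.750 to 1.07). The 4 nodose clusters lay between 0.110 and 0.240 (female) and between 0.123 and 0.427 (male). Neuron-like nuclei were 8.65-fold (log2 interval 2.68 to 3.58) and 6.13-fold (2.38 to 2.86) above non-neuronal nuclei. The lncRNA gene 9330158H04Rik overlaps *Chrm2* on the opposite strand and was counted separately.

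*Chrm3*, a Gq-coupled receptor of smooth muscle, glands and endothelium, had 1098 and 1184 UMIs and was lower in neuron-like than in non-neuronal nuclei. Endothelial cell-like nuclei had 8.47 (7.74 to 9.25) for female and 1.93 (1.61 to 2.30) for male mice. The class was made of clusters 25 and 13 in different parts. Cluster 25 had 16.1 (14.6 to 17.6) in 105 female and 7.87 (6.14 to 9.92) in 28 male nuclei, and cluster 13 had 1.76 (1.32 to 2.29) in 110 female and 0.970 (0.729 to 1.26) in 164 male nuclei. The female level was higher in each cluster. Fibroblast-like nuclei, where the background was 5.26%, had 2.75 (2.30 to 3.25) and 2.51 (2.08 to 2.99), a pair of levels whose intervals overlapped. Louvain clustering lost this call too. The unnamed cluster 4, led by Slc47a1 and Col25a1, had 2.24 (1.84 to 2.70) and 4.14 (3.75 to 4.57). Among neuron-like clusters *Chrm3* was highest in jugular cluster 31, led by Cdh9, Tafa4 and Dpp10, with 1.23 (0.885 to 1.66) and 1.38 (1.16 to 1.63). Nodose nuclei had 0.0510 and 0.0346, below the macrophage-like 0.384 and 0.283. The gene spans 485 kb and holds the sense-intronic genes Gm47404 and Gm47405 on its own strand, so reads in those stretches cannot be assigned with certainty. The antisense gene Gm26861 overlaps it too.

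*Chrm1*, a Gq-coupled receptor of neurons, had 33 and 98 UMIs. Among neuron-like clusters its level was highest in the sympathetic one, with 9 UMIs (0.498, 0.228 to 0.945) and 32 UMIs (0.165, 0.113 to 0.233). It was called in perineurial cell-like nuclei (background 5.92%) on 6 and 7 UMIs, and the male interval there included no difference. *Chrm4* had 4 and 1 UMIs and *Chrm5* 2 and 3.

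The alpha1 and beta adrenergic receptors were called in fat, perineurial and jugular classes. *Adra1a*, a Gq-coupled alpha1 receptor, had 260 of its 372 female and 55 of its 164 male UMIs in adipocyte-like nuclei. Its level there was 6.89 (6.08 to 7.78, n = 84 nuclei) and 4.62 (3.48 to 6.01, n = 31 nuclei), 105-fold and 116-fold above all other nuclei, in a class where 6.80% of genes were called. A UMI was found in 77.4% (67.0 to 85.8%) of female and 51.6% (33.1 to 69.9%) of male adipocyte-like nuclei, and in 0 of 138 and 0 of 132 macrophage-like nuclei, which by the 3-count limit allows up to 2.17% and 2.27% of such nuclei to have a UMI at their depth. Among neurons *Adra1a* was highest in nodose cluster 27, with 0.383 (0.237 to 0.586) and 0.320 (0.229 to 0.436).

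*Adrb3*, the beta receptor through which noradrenaline drives fat breakdown, was also led by adipocyte-like nuclei. It had 1.43 (1.07 to 1.87) and 1.68 (1.03 to 2.60) there, on 54 of 67 and 20 of 34 UMIs, and the neuron-like nuclei had 3 and 7 UMIs. *Adrb1*, the beta receptor of heart, had 2 leading sites. Adipocyte-like nuclei had 0.344 (0.183 to 0.589) and 0.336 (0.0916 to 0.860), and jugular nuclei were 4.25-fold (log2 interval 1.07 to 3.06) and 9.77-fold (2.48 to 4.14) above all others. Jugular cluster 31 held 14 of 15 female and 36 of 39 male jugular *Adrb1* UMIs, at 0.409 (0.224 to 0.686) and 0.353 (0.247 to 0.488), so this cluster led the neurons in both *Adrb1* and *Chrm3*. *Adrb3* overlaps the antisense gene Gm45470 over 11647 bases.

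*Adra1b*, the second alpha1 receptor, was called in perineurial cell-like nuclei. Perineurial cell-like nuclei had 1.16 (0.945 to 1.41) and 1.0 (0.811 to 1.23), 19.1-fold (log2 interval 3.84 to 4.67) and 18.7-fold (3.83 to 4.61) above all others. Of the perineurial clusters, cluster 19 carried it at 3.05 (2.42 to 3.80) and 2.41 (1.89 to 3.02), and cluster 2 at 0.319 and 0.318. Unnamed cluster 4 had 0.815 and 0.751. *Adra1d* had 5 and 2 UMIs and overlaps the antisense gene Gm14285.

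The alpha2 receptors, which are Gi-coupled, were highest among neurons in the sympathetic nuclei. *Adra2a* had 0.277 (0.0898 to 0.645) and 0.459 (0.368 to 0.565) there, *Adra2b* 0.166 (0.0342 to 0.485) and 0.206 (0.147 to 0.281), and *Adra2c* 0.166 (0.0342 to 0.485) and 0.345 (0.268 to 0.439). The female values rest on 5, 3 and 3 UMIs. *Adra2a* was called in barrier fibroblast-like nuclei (background 6.64%) at 0.197 (0.108 to 0.331) and 0.284 (0.185 to 0.416), and in mural cell-like nuclei (4.64%) on 3 and 6 UMIs. The mural call for *Adra2c* rests on 1 and 3 UMIs, and its intervals included no difference. In the male library *Adra2a* was at 0.283 (0.122 to 0.558) in macrophage-like nuclei, so the male levels of the barrier and mural classes were not separate from it. *Adra2c* was also at 0.152 (0.0761 to 0.273) and 0.244 (0.17 to 0.339) in jugular cluster 20.

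**Figure D3:**
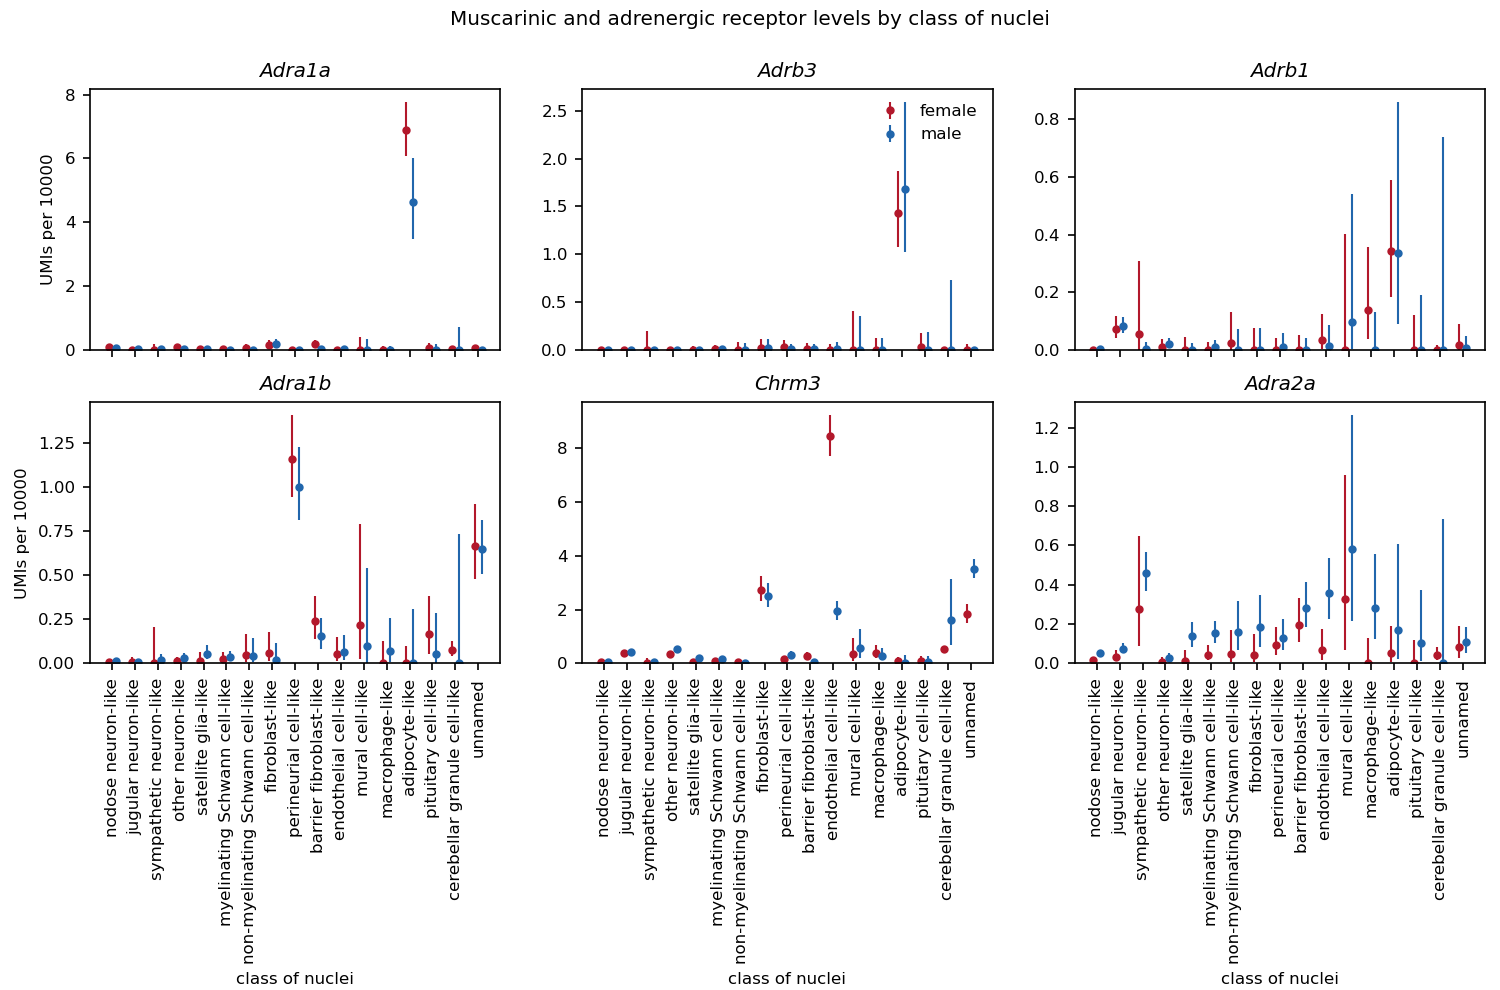
UMIs per 10000 UMIs of *Adra1a*, *Adrb3*, *Adrb1*, *Adra1b*, *Chrm3* and *Adra2a* in 17 classes of nuclei, with points for the female (red) and male (blue) library and bars for exact Poisson 95% intervals. *Adra1a* and *Adrb3* stood out in adipocyte-like nuclei only, *Adra1b* in perineurial cell-like and unnamed nuclei, and *Chrm3* in endothelial cell-like, fibroblast-like and unnamed nuclei.

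Other overlapping genes were not counted, namely Gm44741 (*Chrna7*), 4930480C01Rik and Gm43771 (*Chrna9*), Gm22820 (*Chrm1*), Mir490 (*Chrm2*), and Gm47406, Gm47411 and 9330159N22Rik (*Chrm3*). Introns were counted, so levels of different genes are set side by side only per length. Whether UMIs scale with gene length in these libraries was not tested. Per 100 kb of gene, *Chrna3* had the highest level over all nuclei, 2.15 (female) and 4.66 (male) UMIs per 10000. *Adra2c* (1.33 and 3.16) and *Adra2a* (0.902 and 2.54), both short genes, followed. *Chrm2* had 0.240 and 0.627, and *Chrm3* had 0.130 and 0.0886.

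Nodose and jugular nuclei differed in their receptor genes. Of 18 receptor genes with enough UMIs, 6 were at least 2-fold higher in nodose nuclei in both libraries (*Chrna3*, *Chrna5*, *Chrna9*, *Chrnb4*, *Chrm1* and *Adra1a*), beside a background of 7.79%. Another 3 were at least 2-fold lower (*Chrna6*, *Chrm3* and *Adrb1*), beside 5.15%. *Chrna9* differed 30.3-fold (log2 interval 3.03 to 7.98) and 19.0-fold (3.0 to 5.89), *Chrna3* 5.46-fold (1.90 to 3.05) and 3.82-fold (1.64 to 2.24), and *Chrnb4* 5.03-fold (1.56 to 3.21) and 2.81-fold (1.09 to 1.91). *Chrm3* was at a ratio of 0.133 (log2 interval −3.70 to −2.19) and 0.0792 (−4.25 to −3.11). *Adrb1* had 0 female nodose UMIs, which allows up to 0.00765, against 15 in jugular nuclei. The *Chrm1* call had a female interval that included no difference. The median over the 18 genes was 0.89 and 0.41 on the log2 scale, beside 0.09 and 0.08 over all genes tested.

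Between the male and female libraries 8 of 22 receptor genes (36.4%) differed at least 2-fold over all nuclei, beside 7.31% of all genes. Higher in the male library were *Chrna3*, *Chrna5*, *Chrm2*, *Adra2a*, *Adra2b* and *Adra2c*, and higher in the female library were *Adra1a* and *Adrb3*. Sympathetic nuclei, in which these 6 genes were highest among neuron-like clusters, made up 0.237% of female and 3.01% of male nuclei, and there were 84 female and 31 male adipocyte-like nuclei. *Chrm2* had a log2 male over female ratio of 1.39 (95% interval 1.26 to 1.52) over all nuclei, 0.93 (0.79 to 1.07) in neuron-like nuclei and −0.10 (−0.27 to 0.08) in neuron-like nuclei without the sympathetic ones. *Chrna5* went from 1.28 (0.85 to 1.74) to 0.06 (−0.49 to 0.63) in the same way. *Chrna3* stayed at 0.47 (0.29 to 0.65) in neuron-like nuclei without the sympathetic ones and was at 1.63 (1.39 to 1.87) in non-neuronal nuclei. *Adrb3* was at 0.23 (−0.59 to 1.0) and *Adra1a* at −0.58 (−1.02 to −0.15) within adipocyte-like nuclei. Over all named non-neuronal nuclei 12 of 19 receptor genes (63.2%) differed at least 2-fold. The 8 higher in the male library were the 6 named above, *Chrna9* and *Chrm1*, and the 4 higher in the female were *Chrm3*, *Adra1a*, *Adrb1* and *Adrb3*. Of 16353 genes tested there, 479 were higher in the male and 642 in the female library.

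Within neuron-like nuclei 3 of 20 receptor genes (15.0%) differed at least 2-fold, *Chrna4*, *Adra2a* and *Adra2b*, all higher in the male library, beside 4.05%. Without the sympathetic nuclei they were 2 of 19 (10.5%), *Chrna4* and *Adra2a*. Of 17256 genes tested there, 325 were higher in the male and 242 in the female library. *Adra2b* had 40 male and 3 female UMIs in sympathetic nuclei, at levels of 0.206 and 0.166 with overlapping intervals. Within nodose nuclei 3 of 16 receptor genes (18.8%) differed, beside 3.66%. These were *Chrna4* and *Adra2a*, higher in the male, and *Chrna7*, higher in the female library. Nodose *Adra2a* had 6 and 47 UMIs, a log2 ratio of 1.78 (0.55 to 3.30), and *Chrna4* had 3 and 22 UMIs with an interval (−0.05 to 4.07) that included no difference. Nodose *Chrna7* had 56 and 62 UMIs, a log2 ratio of −1.05 (−1.59 to −0.50). These UMIs lay in 15 of 362 female (4.1%) and 51 of 894 male (5.7%) nodose nuclei. By share of nuclei *Chrna7* was thus not higher in the female library. Its interval covers counting error only, and its coverage for UMIs gathered in few nuclei was not tested. *Chrnb3* was level in nodose nuclei, with a ratio of 0.00 (−0.30 to 0.29). Within jugular nuclei 3 of 12 receptor genes (25%) differed at least 2-fold, *Chrnb2*, *Chrnb1* and *Adra2a*, all higher in the male library. Of 13595 genes tested in jugular nuclei, 464 were higher in the male and 174 in the female library. Male *Adra2a* was also up in non-neuronal nuclei at 1.54 (1.03 to 2.07), beside the sympathetic markers given above, whose part in this was not tested.

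**Figure D4:**
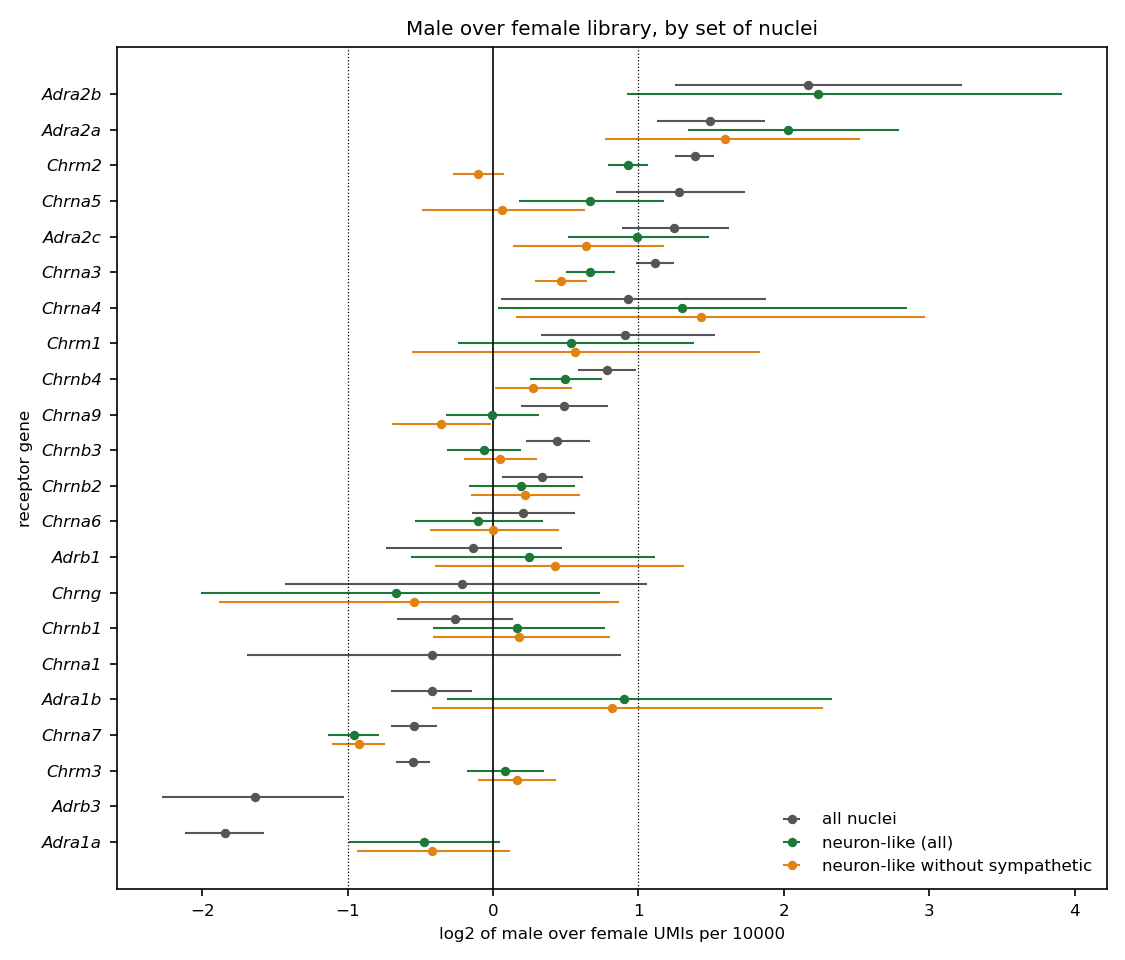
Log2 ratio of male over female UMIs per 10000 UMIs for the receptor genes, over all nuclei (grey), neuron-like nuclei (green) and neuron-like nuclei without the sympathetic ones (orange), with exact conditional 95% intervals as bars and dotted lines at 2-fold. Genes with under 20 UMIs in a set have no point there, and the *Chrm2* point moves from 1.39 over all nuclei to −0.10 without the sympathetic nuclei.

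Of the 38 genes that make, move, break down or relay these transmitters, 35 had enough UMIs and 1 was at least 2-fold higher in neuron-like than in non-neuronal nuclei in both libraries, *Gnal*, an alpha subunit of the Gs type, at 3.79-fold and 2.27-fold. *Musk*, the receptor kinase of the neuromuscular junction, was the 1 that was lower. Over all genes tested 11.9% were higher and 17.0% lower, so fewer of these genes were called than of genes in general. Between nodose and jugular nuclei 7 of the 35 were at least 2-fold higher (*Slc5a7*, *Ache*, *Bche*, *Th*, *Ddc*, *Maob* and *Gnas*) and 4 lower (*Arrb1*, *Gna14*, *Gnal* and *Rgs4*), beside 7.79% and 5.15% of all genes. *Chat*, which makes acetylcholine, had 0 and 18 UMIs over all nuclei, and its vesicle transporter *Slc18a3* had 2 and 12. *Slc5a7*, the choline transporter, had 0.777 and 0.606 in nodose nuclei against 0.101 and 0.135 in jugular nuclei. *Th*, the first enzyme of catecholamine synthesis, had 1.49 and 1.37 in sympathetic nuclei and 0.245 and 0.317 in nodose nuclei. *Dbh* and *Slc6a2*, the noradrenaline enzyme and transporter, had 4.98 and 4.51, and 15.6 and 15.2, in sympathetic nuclei. These 3 genes were among the markers that named the sympathetic class, so their levels there are no separate evidence. In non-neuronal nuclei *Slc6a2* was at 0.236 (female) and 1.59 (male).

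Receptor genes were seldom caught in the same nucleus at equal depth. After thinning to 1000 UMIs, 164 neuron-like nuclei of both libraries had a *Chrna3* UMI, of which 6 also had *Chrnb4* and 12 had *Chrm2*. Of 61 nuclei with *Chrna7*, 7 had *Chrm2* (11.5%), against 5.34% of nuclei without it. Counts this small do not show which receptors share a cell.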

How the data were processed

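Nuclei of female and male vagus nerve ganglia were profiled by 10x Genomics 3' single nucleus RNA-Seq (v3.1 chemistry). The authors aligned reads to mm10 with Cell Ranger 7.1.0, counted UMIs with introns included, removed debris with DIEM, kept barcodes with over 250 genes and over 1000 UMIs, and aggregated the libraries to equal mapped reads, so the deposited matrix holds counts after subsampling. Its barcodes end in 1 or 2. The number of barcodes with each ending equals the number of nuclei stated for each sex, and Xist (13424 and 7 UMIs) and Uty (1 and 4677 UMIs) went the same way. The study counted the removal of possible doublets among the Cell Ranger and DIEM steps, and no doublet caller was run here.

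From these counts, 3000 variable genes without receptor, pathway and sex-linked genes gave 30 principal components (scikit-learn 1.9.0), 30 neighbours and Leiden clustering (leidenalg 0.10.2, resolution 2, 38 clusters). A cluster took the name of the marker list with the highest mean log2 fold, if at least 3 markers were past 1.5-fold and its 10 top genes held no more markers of another list than of its own. UMIs of each gene were summed per class and library. A gene was called where its level was at least 2-fold different in both libraries, with at least 20 UMIs, and a class needed at least 20 nuclei in each library. There was 1 library per sex, so no p-value was computed. Intervals were exact (Poisson, Clopper-Pearson, and conditional for ratios) at 95% and cover counting error only. The rule and intervals were tested on simulated counts drawn independently from summed class totals. Such counts do not hold UMIs gathered in few nuclei, so how the intervals cover for genes of that kind was not tested. Thinning to 1000 UMIs left out 19 female nuclei and 0 male nuclei.

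All 29 receptor genes are accounted for. Those with at least 100 UMIs, or with at least 20 UMIs and a called class, are described with both libraries' values. Pathway genes called in neuron-like nuclei, the enzymes and transporters of cholinergic and catecholaminergic cells, and genes overlapping a receptor gene are named. The members and lists were chosen with earlier results of these data known. Alternatives were other clusterings, deeper nuclei, means over nuclei, each library alone and other UMI minimums.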

Additional observations from a re-analysis of the deposited data

Results flagged for a closer look

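By summed UMIs *Chrm3* differed between the libraries in opposite directions in different classes. Its log2 male over female ratio was 1.85 (95% interval 0.48 to 3.57) in satellite glia-like nuclei, on 5 and 33 UMIs, and −2.13 (−2.43 to −1.85) in endothelial cell-like nuclei, on 490 and 125 UMIs. The satellite glia-like class was made of clusters 3 and 15, with 152 and 113 female and 389 and 101 male nuclei, and 32 of its 33 male UMIs lay in cluster 3. Its male level of 0.215 was below the 0.283 of male macrophage-like nuclei. These satellite glia-like UMIs came from 2 of 265 female (0.755%, 0.0915 to 2.70%) and 12 of 490 male nuclei (2.45%, 1.27 to 4.24%). The intervals of these shares overlapped, and the ratio interval covers counting error only. The endothelial cell-like class held cluster 25, with 105 female and 28 male nuclei, and cluster 13, with 110 and 164. Its ratio therefore also holds these unequal parts, though the female level was higher in each cluster. The difference between the classes was not tested.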

How the results depend on the processing

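With 2 libraries that each hold 1 sex, no paired analysis was possible because they pool different mice and have no matched units. Over 8 alternatives the count of receptor genes higher in neuron-like nuclei stayed at 4 to 5, except that it fell to 3 with at least 50 UMIs, which removes *Chrna1* and *Chrng*. With the male library alone it was 4 and with the female library alone 5, and *Chrna1* and *Chrng* were not among them in either. The count of lower genes was 4 to 5. Without the sympathetic nuclei, a choice made after seeing the data, it stayed at 4, but *Chrm3* and *Adra1a* left it and *Adra2a* and *Adra2b* entered. The 13 genes higher in a class became 11 to 16. Of the 17 pairs of gene and class, 10 were kept under all of the clustering, depth, single-library and UMI-minimum alternatives, and 7 were lost under at least 1, among them *Chrnb3* in nodose and pituitary cell-like, *Chrm3* in fibroblast-like and both mural calls. The 8 genes past 2-fold between libraries fell to 3 in neuron-like nuclei only, and were 7 to 11 otherwise. Without the sympathetic nuclei they were 7, with *Chrm2* and *Chrna5* leaving and *Chrna4* entering. The *Adrb3* log2 ratio turned from −1.64 to 0.18 when classes counted equally. Louvain clustering on 10 components formed no sympathetic class, so it gave no sympathetic level. All 28 shares of neuron-like nuclei fell below their interval on thinning. Sums of few UMIs limit *Chrna1*, *Chrng*, *Chrm1*, *Chrna4*, *Adra2b* and every female sympathetic value.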
